A study of Homo sapiens with 12 samples.

Results

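Integrin subunits and laminin chains were followed in human cell lines from metastatic melanoma (A2058, A375 and SKMEL-5, 3 in all), each grown in normoxia (atmospheric oxygen) and in hypoxia (1% oxygen). The members are 37 listed genes, found by symbol among the 60656 gene IDs of the count table: 18 integrin alpha subunits, 8 integrin beta subunits and 11 laminin chains. The series is bulk RNA-seq of total RNA of 12 libraries that form 6 groups of 2, and its title asks how hypoxia bears on the surface sugars and growth properties of metastatic melanoma. Per the series' design text the 2 libraries of a group are biological duplicates and the normoxic libraries are the reference. The labels name no other agent, allele or passage, and the lines are cultured tumour cells without the tissue around them. Values of pairs of libraries are given in the order library 1, library 2.

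Integrins are receptors in the cell membrane, each made of 1 alpha and 1 beta subunit, that hold cells to the extracellular matrix and signal into the cell. Laminins are matrix proteins of basement membranes, each a cross of an alpha, a beta and a gamma chain, and integrins that contain ITGA3, ITGA6 or ITGA7 bind them. ITGB4 pairs with ITGA6 only and anchors epithelial cells to the basement membrane in hemidesmosomes, while in melanoma the pair of ITGAV and ITGB3 is best known for its part in invasive growth.

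The libraries held 33831569 to 54202819 counts, so that a count of 0 allowed up to 0.0553 to 0.0887 CPM (3 counts of the total, a limit that covers counting error only). Counts per library total (CPM) are scaled by TMM here and do not correct for gene length. CA9, a carbonic anhydrase used as a check of the oxygen labels, lay between 0.0826 and 19.0 CPM in the normoxic libraries and between 352 and 725 CPM in the hypoxic ones (log2 change 6.77 ± 1.18 SE, edgeR's quasi-likelihood test, adjusted p = 0.0257, called in 14 of 22 alternative analyses). In normoxia, CA9 was higher in library 1 than in library 2 of each line. The values were 19.0 and 0.0826 CPM in A2058, 4.91 and 0.805 CPM in A375, and 9.81 and 0.223 CPM in SKMEL-5. The normoxic reference libraries were thus not alike in this check. A single hypoxic library of each line stood apart from its partner. These were hypoxia 2 of A2058 and hypoxia 1 of both A375 and SKMEL-5, which held 125 to 274 CPM of the clock gene DBP (here per library total, without TMM), against 7.35 to 17.1 in the other hypoxic libraries. On the same unscaled measure the mitochondrial MT-RNR2 stood at 3590, 16800 and 14400 in these libraries, against 1830, 552 and 1350 in their partners. Mitochondrial genes took 2.79% to 20.1% of the counts of normoxic libraries, the highest share in A2058 normoxia 1, and 0.648% to 3.32% of the hypoxic ones. The A375 and SKMEL-5 libraries were nearly alike across genes. The correlation of log2 CPM between a library of A375 and one of SKMEL-5 was 0.912 to 0.990, against 0.917 to 0.982 within A375 and 0.810 to 0.880 between A2058 and either. The pigment cell genes TYR and MLANA had no count in any A375 or SKMEL-5 library, while the neural crest factor SOX10 lay between 765 and 1684 CPM in all 12. Where libraries of these lines share a source, p-values over 3 lines are too small.

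Levels of different genes were compared as CPM per kilobase of exon, which allows for transcript length. By this measure the most abundant members were LAMB1 (101 ± 63.9, SD over 12 libraries), LAMC1 (62.7 ± 21.9), ITGB1 (60.4 ± 44.6), ITGA3 (55.0 ± 26.9), ITGB3 (39.6 ± 22.8), ITGA6 (38.1 ± 22.1), ITGA5 (34.3 ± 14.6) and ITGB5 (30.4 ± 16.1). Neighbours in that order differ by less than the larger of their spreads over libraries. They hold a laminin beta and gamma chain, the common partner of the matrix-binding alpha subunits (ITGB1), the alpha subunits of a laminin receptor (ITGA3), of a fibronectin receptor (ITGA5) and of the ITGB4 receptor (ITGA6), and both main partners of ITGAV (ITGB3 and ITGB5). ITGB4 ranked 11 of 37 by its mean of 10.7 ± 21.2, but its median was 2.78 and its range ran from 0.179 to 75.1. At the other end ITGAL, ITGA8, ITGAD, ITGB6, ITGAM and LAMB4 were below 1 CPM in every library. In all, 22 members reached 1 CPM in all 12 libraries and 9 in some of them.

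**Figure D1:**
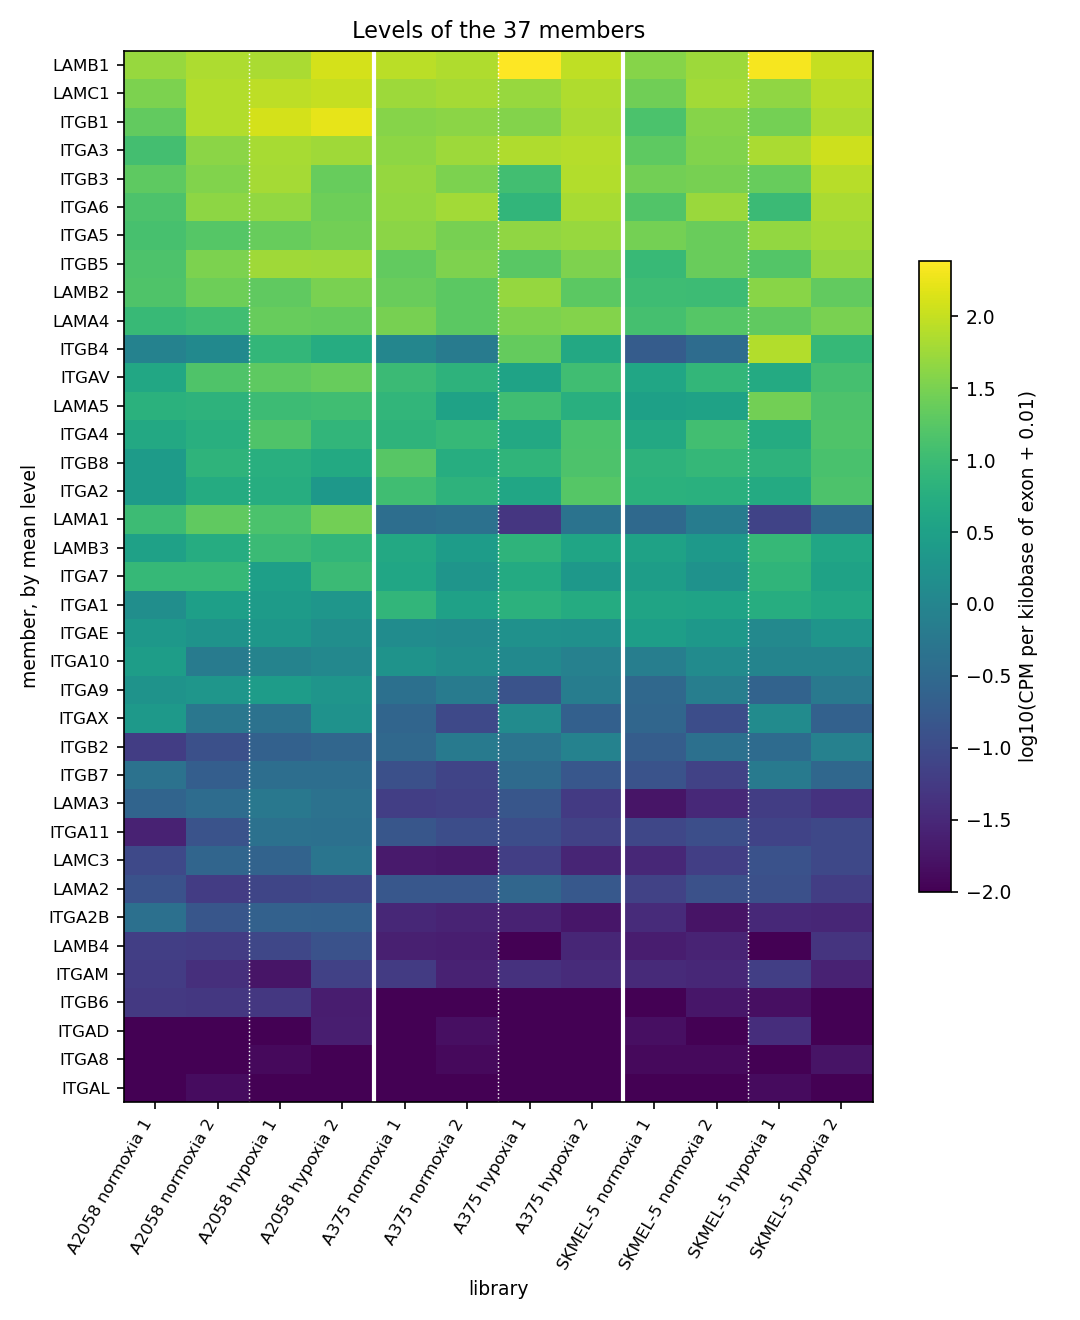
Level of each of the 37 members (rows, ordered by mean) in each of 12 libraries (columns); colour is log10 of CPM per kilobase of exon plus 0.01. LAMB1, LAMC1 and ITGB1 head the order, ITGB4 is dark in the normoxic and lighter in the hypoxic columns, and LAMA1 is light in the 4 A2058 columns only.

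Because a receptor needs both subunits, the members were also read as the 24 known alpha and beta pairs. In 14 pairs both subunits reached 1 CPM in all 12 libraries: ITGB1 with ITGA1, ITGA2, ITGA3, ITGA4, ITGA5, ITGA6, ITGA7, ITGA9, ITGA10 or ITGAV, ITGAV with ITGB3, ITGB5 or ITGB8, and ITGA6 with ITGB4. In 5 pairs both never reached it together: ITGA8 with ITGB1, ITGAV with ITGB6, and the leukocyte pairs of ITGB2 with ITGAL, ITGAM or ITGAD. The other 5 were met in some libraries. Among them the leukocyte pair of ITGAX and ITGB2 was met in 8, and ITGA11 with ITGB1 in 7. ITGB7 was met with ITGA4 in 6 libraries and with ITGAE in 6. The platelet receptor pair of ITGA2B and ITGB3 was met in 3 libraries, all of them A2058. These counts are of RNA and do not show protein at the surface.

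ITGB4 RNA was low in all normoxic libraries and higher in all hypoxic ones, in each of the 3 lines. In A2058 it stood at 5.77 and 8.01 CPM in normoxia and at 53.97 and 34.7 CPM in hypoxia. The A375 libraries held 6.82 and 4.45 CPM in normoxia and 151 and 29.6 CPM in hypoxia. In SKMEL-5 it stood at 1.21 and 2.35 CPM in normoxia and at 508 and 58.6 CPM in hypoxia. The highest normoxic value of any line was thus below the lowest hypoxic value of any line, while the 2 hypoxic libraries of A375 and of SKMEL-5 lay far from each other. ITGB4 lies on chromosome 17 (GRCh38, 75721328 to 75757818, plus strand).

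Averaged over the 3 lines, ITGB4 rose by 4.66 ± 0.59 (SE) on the log2 scale, a 25.4-fold difference (edgeR, adjusted p = 0.00882). The differences within the lines were 2.69 ± 0.93 (A2058), 4.0 ± 0.98 (A375) and 7.31 ± 1.15 (SKMEL-5). None of these passed the threshold over all genes by edgeR (adjusted p = 0.394, 0.707 and 0.354), and a test of equal differences between the lines gave an unadjusted p of 0.0129 and an adjusted p of 1. Without the 3 hypoxic libraries that stood apart the rise was 3.44 on the log2 scale (edgeR, adjusted p = 0.0341). The call was lost when A375 normoxia 1 (edgeR, adjusted p = 0.0531), A375 normoxia 2 (0.0671), SKMEL-5 normoxia 1 (0.0501) or SKMEL-5 normoxia 2 (0.0508) was left out, with log2 changes of 4.56 to 4.85, and when A2058 and A375 alone were averaged (3.34, adjusted p = 0.0916). GALK1, which overlaps ITGB4 on the opposite strand, lay between 16.6 and 90.8 CPM in normoxia and between 23.6 and 70.8 CPM in hypoxia, with a log2 change of 0.20 ± 0.27 (edgeR, adjusted p = 0.723).

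ITGA6, the only alpha partner of ITGB4, showed no such order. In A2058 it stood at 95.2 and 290 CPM in normoxia and at 314 and 171 CPM in hypoxia. In A375 the level was 308 and 385 CPM in normoxia and 49.9 and 426 CPM in hypoxia. In SKMEL-5 it stood at 102 and 351 CPM in normoxia and at 64.7 and 433 CPM in hypoxia. The conditions overlapped in each line, and the lowest values of all were in the hypoxic libraries of A375 and SKMEL-5 that stood apart. The 3-line log2 change was -0.02 ± 0.59 (edgeR, adjusted p = 1), and 0.62 without the libraries that stood apart, so that no direction can be given.

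**Figure D2:**
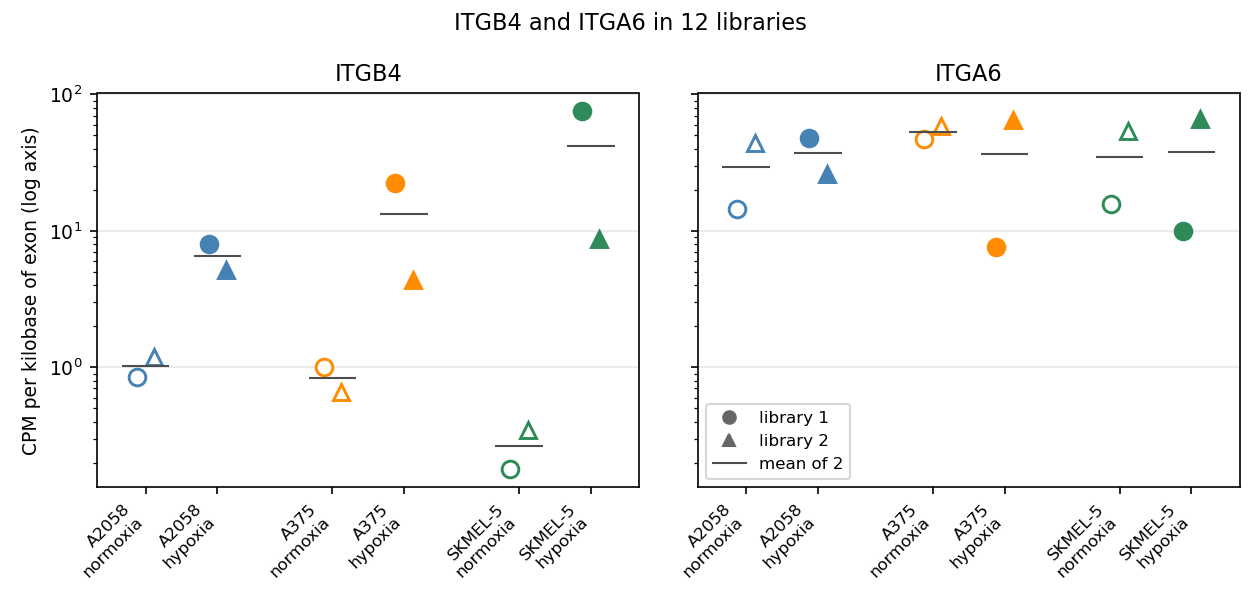
ITGB4 (left) and ITGA6 (right) in CPM per kilobase of exon on a log axis, by line and condition; open symbols are normoxic and filled symbols hypoxic libraries, circles library 1, triangles library 2, and lines the mean of 2. All 6 hypoxic ITGB4 values lie above all 6 normoxic ones, while ITGA6 overlaps between conditions in each line.

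Per exon length, the ratio of ITGB4 to ITGA6 was 0.0586 and 0.0267 in normoxic A2058 libraries and 0.166 and 0.196 in hypoxic ones. In A375 it was 0.0214 and 0.0112 in normoxia and 2.92 and 0.0670 in hypoxia. In SKMEL-5 it was 0.0115 and 0.00646 in normoxia and 7.58 and 0.131 in hypoxia. ITGB4 RNA thus exceeded that of its partner in 2 of 12 libraries, the hypoxic A375 and SKMEL-5 libraries that stood apart, where ITGB4 was at its highest and ITGA6 at its lowest. Among all beta subunits ITGB4 held 0.306% to 1.43% of the summed level per exon length in normoxia, and in hypoxia 2.04% to 3.89% in 4 libraries, 23.1% in A375 hypoxia 1 and 49.5% in SKMEL-5 hypoxia 1.

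Of the 8 beta subunits, 7 were tested (ITGB6, of epithelia, was too low), and ITGB4 was the only 1 called higher, where 0.978% of all tested genes were. None was called lower. The median of the 7 log2 changes was 0.95, against 0.02 over all 19636 genes tested. The unadjusted edgeR p was under 0.05 for 4 of the 7, all higher, against 12% of all tested genes higher. ITGB1 had the highest mean level per exon length of the beta subunits over 12 libraries, but not in every group. In SKMEL-5 normoxia its mean was 26.5 CPM per kilobase, against 29.8 for ITGB3. ITGB1 stood at 128 and 459 CPM in normoxic A2058 libraries and at 757 and 984 CPM in hypoxic ones. For A375 the values were 229 and 257 CPM in normoxia and 221 and 404 CPM in hypoxia, and SKMEL-5 showed 83.0 and 236 CPM in normoxia and 177 and 421 CPM in hypoxia. The conditions were separate for ITGB1 in A2058 only, and its 3-line log2 difference was 0.95 ± 0.39 (edgeR, adjusted p = 0.224).

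ITGB3, which pairs with ITGAV as a receptor for vitronectin and other ligands, stood at 88.2 and 158 CPM in normoxic A2058 libraries and at 270 and 100 CPM in hypoxic ones. In A375 it stood at 215 and 145 CPM in normoxia and at 49.5 and 339 CPM in hypoxia, and SKMEL-5 showed 126 and 137 CPM in normoxia and 102 and 359 CPM in hypoxia. In each line the hypoxic library that stood apart was the lower of the pair, and the conditions overlapped (log2 difference 0.50 ± 0.47, edgeR, adjusted p = 0.578). ITGB5, another partner of ITGAV, stood at 93.3 and 211 CPM in normoxic A2058 libraries and at 366 and 356 CPM in hypoxic ones. The A375 libraries held 137 and 221 CPM in normoxia and 116 and 220 CPM in hypoxia, and SKMEL-5 showed 57.5 and 155 CPM in normoxia and 106 and 311 CPM in hypoxia, with a log2 difference of 0.71 ± 0.36 (edgeR, adjusted p = 0.311). ITGB8, a partner of ITGAV that binds latent TGF-beta, ranged from 37.8 to 271 CPM (0.14 ± 0.37), and ITGB7, of lymphocytes, from 0.283 to 2.81 CPM (1.30 ± 0.42, edgeR, adjusted p = 0.148).

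Of the 18 alpha subunits 15 were tested, and none passed edgeR's test in either direction. The unadjusted edgeR p was under 0.05 for 2 of these 15, ITGA3 and ITGA5, both higher, against 12% of all tested genes higher. DESeq2's test called both. The median log2 change of the 15 was 0.30, and 10 of 15 were above 0, against 51.0% of all tested genes. ITGA3, which with ITGB1 binds laminins, stood at 114 and 411 CPM in normoxic A2058 libraries and at 626 and 565 CPM in hypoxic ones. In A375 the level was 425 and 535 CPM in normoxia and 713 and 774 CPM in hypoxia, and SKMEL-5 showed 198 and 352 CPM in normoxia and 670 and 1081 CPM in hypoxia. The hypoxic libraries were above the normoxic ones in each line, and the 3-line log2 difference was 1.16 ± 0.32 (edgeR, adjusted p = 0.106). It was called under 4 of 22 alternative analyses, among them DESeq2's test (adjusted p = 0.0111).

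ITGA5, the fibronectin receptor alpha subunit, showed the same separation at a smaller size. It stood at 96.2 and 129 CPM in normoxic A2058 libraries and at 175 and 218 CPM in hypoxic ones. For A375 the values were 321 and 231 CPM in normoxia and 345 and 380 CPM in hypoxia, and SKMEL-5 showed 225 and 183 CPM in normoxia and 364 and 452 CPM in hypoxia. The gap between conditions in A375 was small against the gap between its normoxic libraries. The 3-line log2 difference was 0.73 ± 0.20 (edgeR, adjusted p = 0.102).

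The other tested alpha subunits had 3-line log2 differences between -0.49 ± 0.35 (ITGA10, a collagen receptor subunit at 4.10 to 17.1 CPM) and 1.23 ± 0.65 (ITGAX, edgeR, adjusted p = 0.327). The collagen receptor subunits ITGA1 (27.4 to 141 CPM), ITGA2 (17.5 to 135 CPM) and ITGA11 (0.179 to 4.67 CPM) had differences of 0.20 ± 0.26, 0.30 ± 0.41 and 0.56 ± 0.45. ITGA11 was 2.58 ± 0.81 higher in hypoxic A2058 on the log2 scale (edgeR, adjusted p = 0.348), with 0.180 and 1.35 CPM in normoxia and 4.67 and 4.46 CPM in hypoxia, and DESeq2 called it there. ITGA4, which binds fibronectin and VCAM1, ranged from 34.6 to 119 CPM (0.56 ± 0.38). ITGAV, the shared alpha subunit of the vitronectin-type receptors, ranged from 28.5 to 190 CPM (0.49 ± 0.40). ITGAE, of lymphocytes in epithelia, ranged from 7.70 to 19.4 CPM (-0.19 ± 0.23). ITGA2B, ITGA7 and ITGA9 had differences of -0.22 ± 0.48, 0.35 ± 0.36 and -0.14 ± 0.43, whose sign changed under at least 1 alternative analysis each.

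Of the subunits known from leukocytes, some were near the counting limit and others were not. ITGAL, ITGAD and ITGA8, a partner of ITGB1 in mesenchyme, were not tested, nor was ITGB6, and the highest value of these 4 in any library was 0.205 CPM. ITGAM lay between 0.0421 and 0.345 CPM (log2 difference 0.04 ± 0.59), and ITGB2, the beta subunit of leukocyte integrins, had a difference of 1.05 ± 0.40 (edgeR, adjusted p = 0.200). ITGAX reached 16.8 CPM in A2058 normoxia 1 and 9.05 and 9.11 CPM in the hypoxic A375 and SKMEL-5 libraries that stood apart. Of 8 blood cell markers 6 were below 1 CPM in all libraries, the leukocyte marker PTPRC among them at up to 0.259 CPM. Their summed level was 4.36 to 12.9 CPM in normoxia and 6.46 to 25.2 CPM in hypoxia, and LAPTM5 rose by 1.63 on the log2 scale (edgeR, adjusted p = 0.0429, called in 7 of 22 alternative analyses).

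The laminin chains were all tested, and 10 of 11 had a log2 change above 0, against 51.0% of all tested genes, with a median of 0.85. The unadjusted edgeR p was under 0.05 for 7 of 11, all higher, against 12% of all tested genes higher. LAMA5, an alpha chain of the widely expressed basement membrane laminins, was the 1 called, where 0.978% of all tested genes were called higher. In A2058 it stood at 91.3 and 96.2 CPM in normoxia and at 147 and 154 CPM in hypoxia. In A375 it stood at 109 and 47.5 CPM in normoxia and at 155 and 81.8 CPM in hypoxia. In SKMEL-5 it stood at 44.8 and 47.6 CPM in normoxia and at 411 and 208 CPM in hypoxia. The conditions were separate in A2058 and SKMEL-5 and overlapped in A375.

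Averaged over the lines LAMA5 rose by 1.34 ± 0.28 on the log2 scale, 2.53-fold (edgeR, adjusted p = 0.0488), with changes of 0.68 ± 0.47 (A2058), 0.60 ± 0.47 (A375) and 2.74 ± 0.50 (SKMEL-5). The call lay at the threshold and held in 6 of 22 alternative analyses. It was lost when any 1 of 10 libraries was left out (edgeR, adjusted p = 0.0571 to 0.186, log2 change 1.15 to 1.58), all but A375 hypoxia 2 and SKMEL-5 hypoxia 2, and without the 3 hypoxic libraries that stood apart the change was 0.94 (edgeR, adjusted p = 0.305). ADRM1, which overlaps LAMA5 on the opposite strand, lay between 202 and 436 CPM in normoxia and between 117 and 329 CPM in hypoxia, with a log2 change of -0.39 ± 0.21 (edgeR, adjusted p = 0.334).

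The stretch before the LAMA5 start is shown because hypoxia-inducible factors bind short motifs in promoters of genes they act on. The promoter set used here held no entry for ITGB4, so the ITGB4 promoter was not searched. LAMA5 lies on chromosome 20 (GRCh38, 62307955 to 62367312, minus strand). The 250 bases before its RefSeq start are given on the strand of the gene, at chr20:62367313-62367562 (GRCh38.p14). They are 82.8% G or C. Capitals would mark ACGTG or GCGTG, the core of a hypoxia response element, on either strand.
LAMA5: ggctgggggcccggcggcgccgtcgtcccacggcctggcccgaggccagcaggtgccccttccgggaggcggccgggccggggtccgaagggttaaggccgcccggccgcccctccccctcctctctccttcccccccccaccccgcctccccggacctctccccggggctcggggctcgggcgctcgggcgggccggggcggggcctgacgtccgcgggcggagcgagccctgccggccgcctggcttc
Neither motif was found in these letters. Over the same 250 bases of all 35116 promoters in the table, 18.5% held ACGTG, which is also part of the palindrome CACGTG, 32.2% held GCGTG and 43.2% held either. Of 33 promoters matched to 26 members, 11 held either motif, a description that shows no binding.

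LAMA4, an alpha chain of laminins in vessel walls and mesenchyme, stood at 103 and 126 CPM in normoxic A2058 libraries and at 268 and 262 CPM in hypoxic ones. The A375 libraries held 348 and 225 CPM in normoxia and 390 and 424 CPM in hypoxia, and SKMEL-5 showed 141 and 196 CPM in normoxia and 238 and 361 CPM in hypoxia. The hypoxic libraries were above the normoxic ones in each line. The 3-line log2 difference of 0.85 ± 0.21 missed the threshold (edgeR, adjusted p = 0.0829), and DESeq2 called it (adjusted p = 0.00311).

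LAMB1, a beta chain shared by many laminins, had the highest mean level per exon length of all members over 12 libraries. In A2058 hypoxia its mean was below that of ITGB1 (98.2 against 145 CPM per kilobase). LAMB1 stood at 420 and 572 CPM in normoxic A2058 libraries and at 554 and 1044 CPM in hypoxic ones. In A375 the level was 684 and 599 CPM in normoxia and 1974 and 738 CPM in hypoxia, and SKMEL-5 showed 312 and 453 CPM in normoxia and 1733 and 818 CPM in hypoxia. The 3 hypoxic libraries that stood apart held the 3 highest values. The log2 difference was 1.17 ± 0.32 (edgeR, adjusted p = 0.106), and 0.46 without those libraries (edgeR, adjusted p = 0.584). LAMC1, the usual gamma chain, stood at 283 and 647 CPM in normoxic A2058 libraries and at 748 and 830 CPM in hypoxic ones. For A375 the values were 470 and 520 CPM in normoxia and 425 and 601 CPM in hypoxia, and SKMEL-5 showed 225 and 510 CPM in normoxia and 381 and 690 CPM in hypoxia. The conditions overlapped in A375 and SKMEL-5, and the log2 difference was 0.45 ± 0.30 (edgeR, adjusted p = 0.419).

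None of the other chains was called in the 3-line mean. LAMB2, a beta chain of muscle and kidney laminins, ranged from 68.6 to 330 CPM (log2 difference 0.85 ± 0.29), and LAMB3, a beta chain of the epidermal anchoring laminin that the ITGA6 and ITGB4 receptor binds, from 10.4 to 45.8 CPM (0.94 ± 0.29). LAMA3, the alpha chain of that laminin, had a difference of 1.00 ± 0.39, and the gamma chain LAMC3 1.41 ± 0.50. LAMA2, the alpha chain of muscle laminin, ranged from 0.523 to 2.83 CPM (0.07 ± 0.38). LAMB4 and LAMA1 had differences of 0.25 ± 0.74 and -0.54 ± 0.53.

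Over all members, then, 2 of 33 tested were called higher in hypoxia in the 3-line mean, ITGB4 and LAMA5, where the background over all tested genes was 0.978%. None was called lower, with a background of 0.143%. The unadjusted edgeR p was under 0.05 for 13 of 33 members, all of them higher in hypoxia, and for 12% of all genes higher and 6.92% lower. Of the 33 log2 differences 27 were above 0, against 51.0% of all genes, and their median was 0.56. DESeq2's test called 8 members higher (ITGA3, ITGA5, ITGB4, ITGB7, LAMA4, LAMA5, LAMB1 and LAMB3, among 1110 genes in all) and limma-voom 1 (ITGB4). Hypoxic libraries lay above normoxic ones in each line for 4 members, ITGA3, ITGA5, ITGB4 and LAMA4, with a background of 4.86%, and below for none, with a background of 2.79%. In bulk RNA a change in the level per cell and a change in the share of cells that express the gene cannot be told apart.

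**Figure D3:**
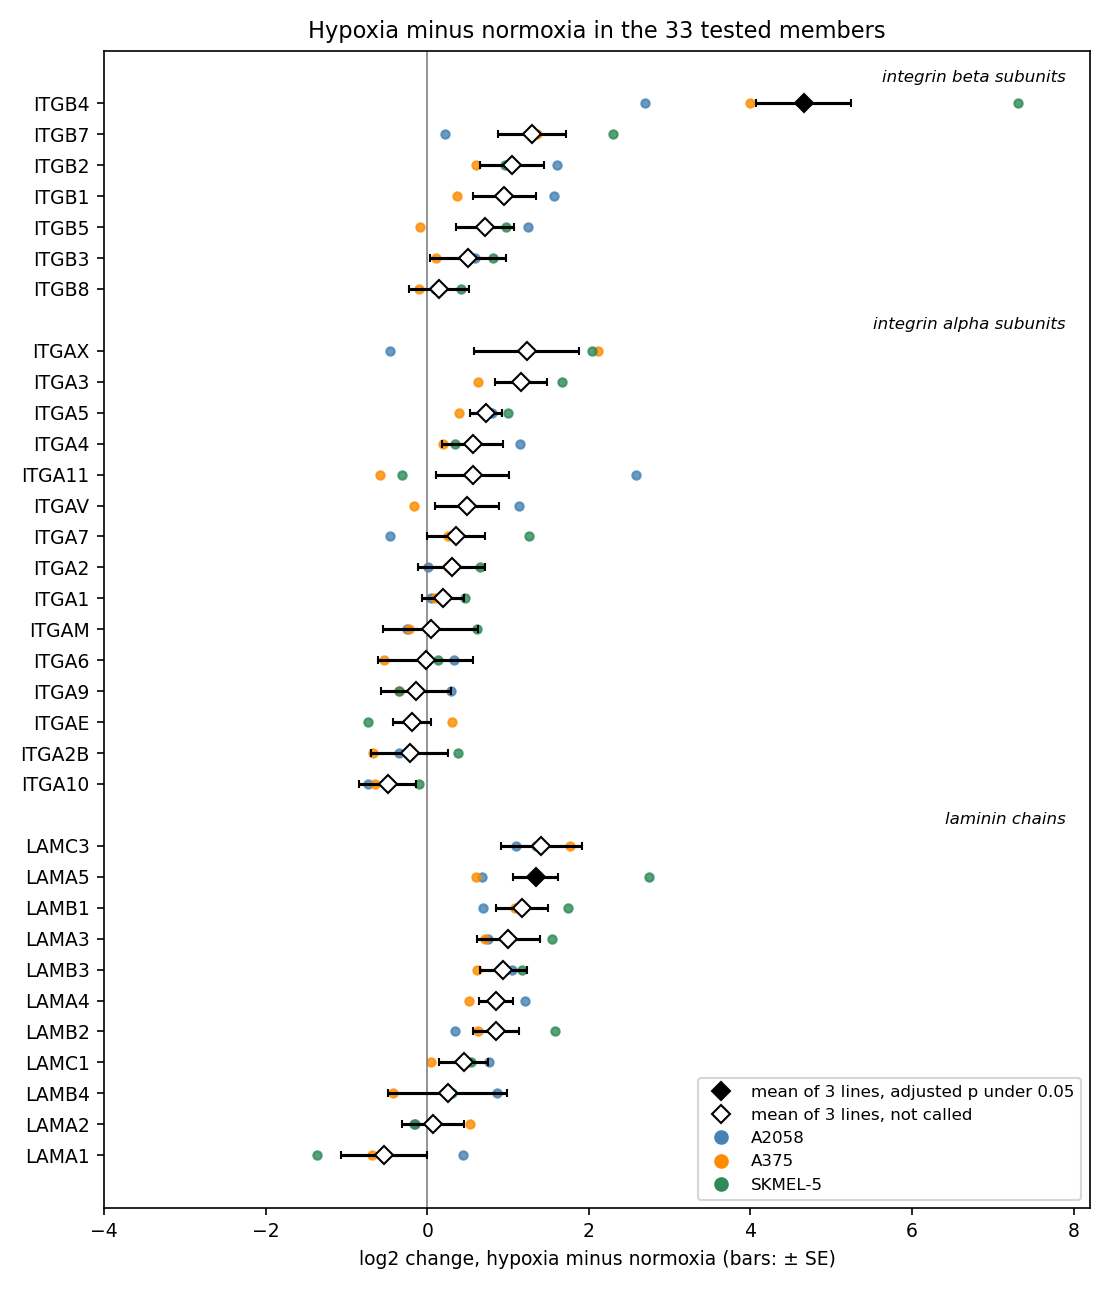
Hypoxia minus normoxia on the log2 scale for the 33 tested members, grouped as beta subunits, alpha subunits and laminin chains; diamonds are the mean of 3 lines with bars of ± SE (filled where adjusted p is under 0.05) and dots the 3 lines. ITGB4 at 4.66 and LAMA5 at 1.34 are the filled diamonds, and 27 of 33 diamonds lie above 0.

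Within the single lines no member was called by edgeR, where 0.0102% of all tested genes were called for A2058, 0% for A375 and also 0% for SKMEL-5. The unadjusted p was under 0.05 for 6 of 33 members in A2058, where it was for 9.16% of all tested genes. It was so for 1 of 33 in A375, against 5.6% of all genes, and for 9 of 33 in SKMEL-5, against 6.53%. DESeq2 called ITGA11 in A2058 (357 of all genes were called there), ITGB4 in A375 (of 107 genes), and ITGB4 and LAMA5 in SKMEL-5 (of 120 genes), and limma-voom called no member. The test of equal differences between the lines called no member and 0% of all genes, with an unadjusted p under 0.05 for ITGA11, ITGB4 and LAMA5 and for 1.6% of all genes. DESeq2 and limma-voom called none there. A line with a larger difference is therefore not shown to differ from the others.

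Of the 5 laminin alpha chains LAMA1 and LAMA3 were called higher in A2058 than in the other lines, where 17.2% of all tested genes were. LAMA4 was called lower, where 16.5% of all tested genes were, and LAMA2 and LAMA5 were not called. None of the 5 was called between A375 and SKMEL-5, where 0.0102% of all tested genes were. LAMA1, a chain of early basement membranes, stood at 159 and 329 CPM in normoxic A2058 libraries and at 219 and 442 CPM in hypoxic ones. In A375 it stood at 5.99 and 6.65 CPM in normoxia and at 0.631 and 7.13 CPM in hypoxia, and SKMEL-5 showed 4.77 and 10.8 CPM in normoxia and 1.05 and 4.92 CPM in hypoxia. Every A2058 library was thus far above every other library, by 5.86 ± 0.59 on the log2 scale against the mean of the other lines (edgeR, adjusted p = 2.7e-05). Of the summed level of the 5 alpha chains per exon length, LAMA1 held 28.8% to 53.5% (A2058), 0.0885% to 1.79% (A375) and 0.133% to 3.21% (SKMEL-5). LAMA4 held 28.1% to 48.4% (A2058), 74.9% to 85.2% (A375) and 41.5% to 80.4% (SKMEL-5). LAMA5 held 58.0% of it in SKMEL-5 hypoxia 1 and 31.6% in SKMEL-5 hypoxia 2, against 20.01% and 15.8% in SKMEL-5 normoxia 1 and 2.

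**Figure D4:**
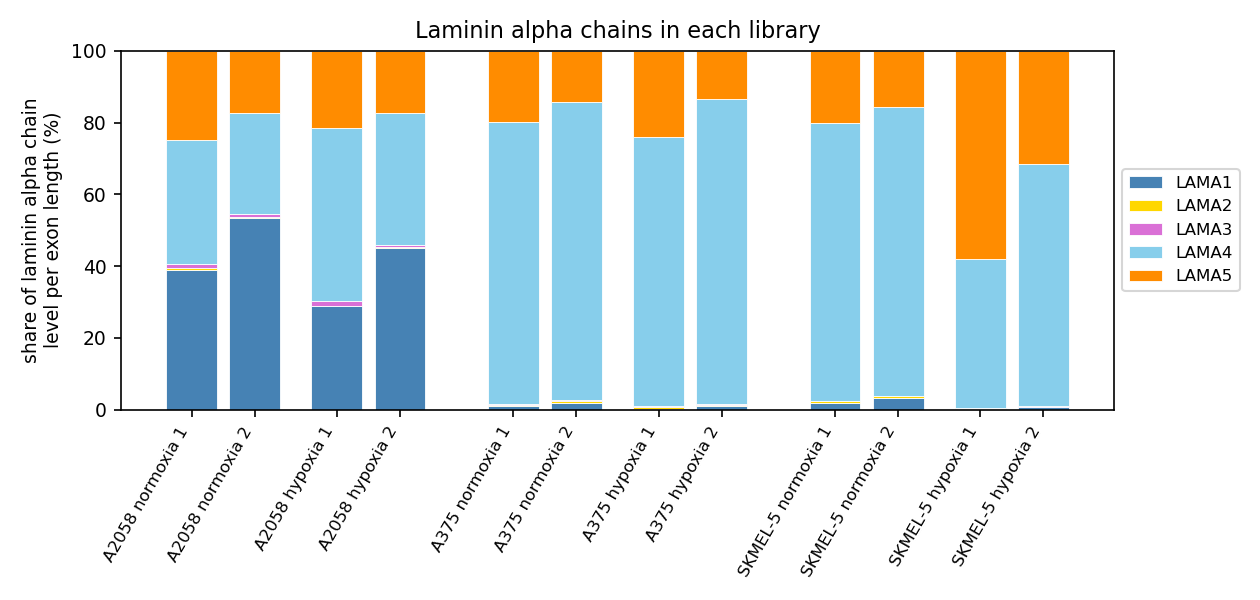
Share of each laminin alpha chain in the summed alpha chain level per exon length (percent), 1 stacked bar per library. LAMA1 takes 28.8% to 53.5% of the 4 A2058 bars and at most 3.21% of the others, and LAMA5 takes most of SKMEL-5 hypoxia 1.

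Between A2058 and the mean of the other lines over both conditions, 7 of 33 members were higher in A2058 with a background of 17.2%, and 4 were lower with a background of 16.5%. Neither count lies far from its background. These are differences between 1 line and 2 lines whose libraries were nearly alike. LAMA3 stood at 3.72, 5.09, 8.27 and 6.58 CPM in A2058, with normoxia first, and between 0.112 and 2.07 CPM in the other 8 libraries (log2 difference 3.17 ± 0.39, edgeR, adjusted p = 0.000112). ITGA9, a receptor subunit for tenascin and other ligands, stood at 14.7, 16.6, 22.2 and 16.0 CPM in A2058 and between 1.02 and 6.20 CPM in the others (2.15 ± 0.44, edgeR, adjusted p = 0.00314). For both, every A2058 library was above every other library. How many of all tested genes separate A2058 from the other lines in this way was not counted. Such separations, here and for the other members, therefore have no background.

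A further 3 called members were close to the counting limit. ITGA2B, the alpha subunit of the platelet fibrinogen receptor, stood at 2.28, 0.771, 1.24 and 1.15 CPM in A2058 (28 to 89 counts) and between 0.0405 and 0.134 CPM in the others, at 2 to 7 counts a library (3.85 ± 0.46, edgeR, adjusted p = 8.76e-05). LAMC3 stood at 0.616, 1.98, 1.81 and 3.76 CPM in A2058 and between 0.0711 and 0.906 CPM in the others (2.84 ± 0.49, edgeR, adjusted p = 0.00102). LAMB4 stood at 0.385, 0.358, 0.526 and 0.833 CPM in A2058 and between 0 and 0.251 CPM in the others, with no count in the hypoxic A375 and SKMEL-5 libraries that stood apart (2.30 ± 0.71, edgeR, adjusted p = 0.0282). LAMC3 overlapped between the lines and the other pair did not. The LAMB4 call was lost without any 1 A2058 library or any 1 normoxic A375 or SKMEL-5 library (8 libraries, log2 difference 2.13 to 2.44, edgeR, adjusted p = 0.0514 to 0.0893).

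ITGA7, a laminin receptor subunit of muscle, stood at 56.0, 55.4, 19.1 and 61.9 CPM in A2058 and between 10.9 and 46.8 CPM in the others (1.16 ± 0.37, edgeR, adjusted p = 0.0307). It overlapped between the lines and lost its call without A2058 normoxia 1 (edgeR, adjusted p = 0.0818), A2058 normoxia 2 (0.0696), A2058 hypoxia 2 (0.269), A375 normoxia 2 (0.0671), SKMEL-5 normoxia 2 (0.0652) or SKMEL-5 hypoxia 2 (0.0511), with log2 differences of 0.62 to 1.16. ITGB6 had 2 to 9 counts in each A2058 library and 0 to 2 in the others, and was not tested.

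The members lower in A2058 were ITGA1, ITGA5, ITGB2 and LAMA4. ITGA5 was lower by 1.02 ± 0.22 on the log2 scale (edgeR, adjusted p = 0.00411). ITGA1 stood at 27.4, 54.3, 46.5 and 37.5 CPM in A2058, below every other library (59.5 to 141 CPM), with a log2 difference of -1.11 ± 0.29 (edgeR, adjusted p = 0.0121). ITGB2 stood at 0.359, 0.743, 1.47 and 1.87 CPM in A2058 and between 1.25 and 6.02 CPM in the others (-1.76 ± 0.46, edgeR, adjusted p = 0.0127). LAMA4 differed by -0.67 ± 0.23 (edgeR, adjusted p = 0.0439). ITGA1 lost its call without A2058 normoxia 1 (edgeR, adjusted p = 0.0668) or A2058 hypoxia 2 (0.0639), and ITGB2 without A2058 normoxia 1 (0.0602) or A2058 hypoxia 1 (0.0515). LAMA4 lost it without any 1 of 9 libraries (edgeR, adjusted p = 0.0501 to 0.152), all but A375 normoxia 2, SKMEL-5 normoxia 1 and SKMEL-5 hypoxia 1.

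**Figure D5:**
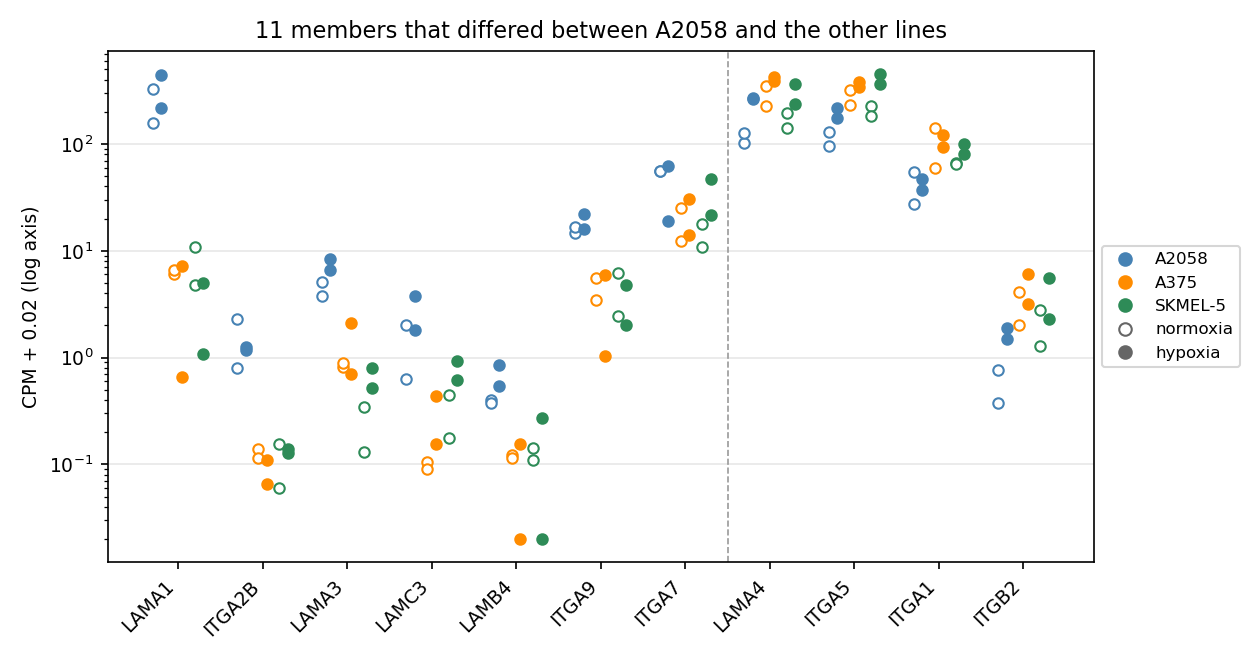
The 11 members that differed between A2058 and the mean of A375 and SKMEL-5, as CPM plus 0.02 on a log axis; each point is 1 library, coloured by line, open in normoxia and filled in hypoxia. The 7 members left of the dashed line were higher in A2058, with LAMA1 set apart by the widest gap, and the 4 to its right were lower.

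Between A375 and SKMEL-5 no member was called by edgeR, DESeq2 or limma-voom, where edgeR called 0.0102% of all genes. The unadjusted edgeR p was under 0.05 for 4 of 33 members, all laminin chains, and for 1.78% of all tested genes. LAMA2 (log2 difference 1.08), LAMA3 (1.5) and LAMA4 (0.60) were higher in A375 and LAMC3 (-1.65) was lower.

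The hypoxic library that stood apart differed from the other hypoxic library of its line by at least 2-fold in the same direction in each line for 4 members. ITGA7 and ITGAX were higher there, with a background of 3.71%, and ITGA2 and ITGB3 were lower, with a background of 4.95%. In the order A2058, A375, SKMEL-5, the log2 difference of ITGAX was 1.93, 2.56 and 2.53, and that of ITGA7 1.70, 1.14 and 1.12. ITGA2, a collagen receptor subunit, differed by -1.30, -2.11 and -1.61, and ITGB3 by -1.43, -2.77 and -1.82. ITGB4 was higher in the library that stood apart in A375 (2.35) and SKMEL-5 (3.11) and lower in A2058 (-0.64), and ITGA6 was lower in all 3 (-0.88, -3.09 and -2.74). These are single libraries, so that no test was made.

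Genes that work with integrins and laminins were counted from 4 lists. Over all tested genes, 0.978% were called higher and 0.143% lower. The unadjusted edgeR p was under 0.05 for 12% of all tested genes higher and 6.92% lower. Of 32 tested adaptor and signalling genes of integrins none was called in either direction, with a median log2 change of -0.06 and 3 unadjusted p-values under 0.05 each way by edgeR. The smallest p was that of LPXN, a focal adhesion adaptor of the paxillin family, with 45.2 to 126 CPM in the normoxic A375 and SKMEL-5 libraries and 26.6 to 47.0 CPM in the hypoxic ones, and 19.3 and 18.1 CPM against 12.5 and 7.07 CPM in A2058 (-1.12 ± 0.26, edgeR, adjusted p = 0.0646). Of 19 tested genes of hemidesmosomes and other laminin receptors none was called, with a median of 0.20 and 7 unadjusted p-values under 0.05, all higher. CD151, a tetraspanin that binds laminin-binding integrins, stood at 112 to 196 CPM in normoxia and 197 to 381 CPM in hypoxia (0.85 ± 0.21, edgeR, adjusted p = 0.0842). Its 6 hypoxic values all lay above its 6 normoxic ones.

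Of 17 tested basement membrane partners of laminin 1 was called higher and 0 lower, with a median of 0.68. Over all tested genes 0.978% were called higher and 0.143% lower. The unadjusted edgeR p was under 0.05 for 9 of the 17 higher and 1 lower (COL7A1, -0.90 ± 0.30), against 12% and 6.92% of all tested genes. AGRN, a heparan sulphate proteoglycan that binds laminin, rose by 1.62 ± 0.33 on the log2 scale (edgeR, adjusted p = 0.0463), with 66.8 to 311 CPM in normoxia and 323 to 747 CPM in hypoxia. It was called in 8 of 22 alternative analyses, and without the 3 hypoxic libraries that stood apart its change was 1.02 (edgeR, adjusted p = 0.32). Of 27 tested ligands of integrins other than laminin none was called, with a median of 0.45. The unadjusted edgeR p was under 0.05 for 8 of them, all higher, against 12% of all tested genes higher. FN1, fibronectin, differed by 2.91 ± 0.61 (edgeR, adjusted p = 0.0509), with 32.6 to 2433 CPM in normoxia and 427 to 5071 CPM in hypoxia.

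Markers of other cell types were read beside the members. Keratinocytes carry ITGB4 in hemidesmosomes. Of 9 keratinocyte markers KRT5, KRT1, TP63, DSG3 and PKP1 were below 1 CPM in all 12 libraries, DSG3 with no count in any. KRT14 was present in A375 and SKMEL-5, at 2.48 to 18.86 CPM, and lay between 0.1539 and 1.031 CPM in A2058. Its 3-line log2 change was 0.22 ± 0.55 (edgeR, adjusted p = 0.869). The summed level of the list was 43.7 to 104 CPM in normoxia and 54.4 to 146 CPM in hypoxia, most of it KRT10. None of its 4 tested members was called, with a median log2 change of 0.27, and SFN was at 1.77 ± 0.54 (edgeR, adjusted p = 0.131), with 0.0275 to 1.04 CPM in normoxia and 0.201 to 4.63 CPM in hypoxia. The 8 fibroblast markers summed to 10.3 to 27.9 CPM and 14.9 to 110 CPM, the 6 endothelial markers to 2.69 to 11.7 CPM and 2.83 to 12.6 CPM, and the 8 melanocyte and neural crest markers to 1036 to 2646 CPM and 867 to 8009 CPM, with none called in any of these lists. The fibroblast markers had a median log2 change of 0.77. Their unadjusted edgeR p was under 0.05 for 4 of 8, all higher, against 12% of all tested genes higher. The medians of the endothelial and the melanocyte and neural crest markers were -0.53 and 0.48, with no unadjusted p under 0.05. Their part in the members' differences was not tested.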

How the data were processed

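Libraries followed the NuGen Universal Plus mRNA protocol after RNeasy extraction, per the labels' protocols. The submitters' processing notes list STAR 2.5.0a, Trim Galore 0.6.1, bcl2fastq 2.20 and the build GRCh38. How reads were counted, on which strand and with which annotation is not given in the sources used here. Reads where genes overlap on either strand therefore cannot be assigned with certainty. The authors deposited raw counts per gene, without normalization. Of the 60656 gene IDs, 60445 matched a symbol with the version ignored. Positions and exon lengths came from GENCODE 29, and promoters from RefSeq (GRCh38.p14).

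The main test was edgeR 4.0.16's quasi-likelihood test in R 4.3.3 on all 12 libraries with 1 mean per group. TMM set the scale of the libraries, and filterByExpr with a minimum count of 10 and a minimum total of 15 kept 19636 genes. The groups shared 6 residual degrees of freedom, and the common biological coefficient of variation was 0.453. The Benjamini-Hochberg adjustment ran over all tested genes, and the threshold was 0.05. A standard error is the size of the log2 change over the square root of its F statistic. The code was tested on simulated data. Alternatives were DESeq2 1.42.0 (its test and its size factors), limma-voom (limma 3.58.1), 2 other filters on low counts, a replicate block, fewer lines, and each library or the 3 libraries that stood apart left out.

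Replicates differed by more than counting noise (median chi-square per gene 12.4 to 62.2), so each counted as 1 sample. The members and lists were chosen with earlier results of these data known. Values per library are given for each member called in any comparison, for the 8 members with the highest mean level per exon length, and for ITGB4 and ITGA6. In the other lists the called members with the smallest p, up to 3 per direction, or otherwise the member with the smallest p, are named. Members given beyond this rule were chosen after their values were seen.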

Additional observations from a re-analysis of the deposited data

How the results depend on the processing

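ITGB4 was called higher in 17 of 22 alternatives (log2 change 3.34 to 5.0) and LAMA5 in 6 of 22 (0.64 to 1.71). Against 2 members called higher in the 3-line mean there was 1 with DESeq2's size factors, 8 with DESeq2's test, 1 with limma-voom, 9 with no filter on low counts, 1 when the 3 hypoxic libraries set apart from their partners were dropped, 0 over A2058 and A375 alone, 1 over A2058 and SKMEL-5 alone, and 0 to 4 with 1 library left out. Within A2058 the count of members was 1 with DESeq2's test and 1 with no filter, against 0 in the main test. Within A375 the counts were 1 and 1, and within SKMEL-5 2 and 4, again against 0. DESeq2's test called 357, 107 and 120 of all genes in these lines. The test of equal differences called 1 member with no filter. For the no-filter counts within lines and in this test no count over all genes is given, so they have no background here. Nor is one given for the between-line counts that follow. Between A2058 and the other lines 7 to 13 members were called with 1 library left out, against 11. Over all genes, against 192 called higher and 28 lower, the counts were 1110 and 433 with DESeq2's test, 1365 and 490 with no filter, 27 and 3 without the libraries that stood apart, 34 and 14 over A2058 and A375 alone, 24 and 10 over A2058 and SKMEL-5 alone, and 9 to 823 and 4 to 297 with 1 library left out.

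Deviations of same-numbered libraries correlated at -0.304 for A2058, 0.234 for A375 and 0.255 for SKMEL-5. The sign was thus negative in A2058 and positive in A375 and SKMEL-5, so replicate numbers did not pair the libraries alike in every line. With the replicate block 1 member (ITGB4) and 78 and 13 genes were called, and LAMB4 was at -0.11. With the A2058 numbers of the block crossed, a pairing chosen after seeing the data, 4 members and 477 and 132 genes were called, and LAMB4 was at -0.08. The comparisons between lines were not run with the block.

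Members near 0 changed sign. In the mean of A2058 and SKMEL-5, ITGA2B was at 0.01 and ITGA6 at 0.23. Without the libraries that stood apart ITGA6 was at 0.62, ITGA7 at -0.49, ITGA9 at 0.33 and ITGB4 between the lines at 0.78. In the mean of A2058 and A375 ITGA7 was at -0.11, and with limma-voom LAMB4 was at -0.44. With 1 library left out ITGA2B ran from -0.42 to 0.15, ITGA6 from -0.78 to 0.36, ITGA9 from -0.73 to 0.14, ITGB3 from -0.15 to 0.77, LAMB4 from -1.59 to 0.55 and ITGB4 between the lines from -0.58 to 0.21. For single members, of 672 alternative values 584 kept direction and side of the threshold, 51 lost a call, 11 gained one and 26 changed sign. The cause of these shifts was not tested.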

Other observations

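The normoxic libraries of a group differed among themselves to unequal degrees in the 8 members with the highest level per exon length. As log2 of normoxia 2 minus normoxia 1, with A2058 first, then A375, then SKMEL-5, LAMB1 was at 0.45, -0.19 and 0.54 and LAMC1 at 1.19, 0.15 and 1.18. ITGB1 was at 1.84, 0.16 and 1.51, ITGA3 at 1.85, 0.33 and 0.83, and ITGB3 at 0.84, -0.58 and 0.12. ITGA6 was at 1.6, 0.32 and 1.78, ITGA5 at 0.42, -0.47 and -0.30, and ITGB5 at 1.17, 0.69 and 1.43. All 8 were above 0 in A2058, and 5 of 8 in A375 and 7 of 8 in SKMEL-5. How many of all tested genes were above 0 was not counted, so these counts have no background. ITGAX, a less abundant member chosen after its values were seen, was at -2.13, -1.55 and -1.35. These are differences between single libraries, so that no test was made.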
